A study of Caenorhabditis elegans with 10 samples.

Results

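Aquaporins are membrane channels, and the RNA of 10 aquaporin genes of Caenorhabditis elegans was followed here in salt-stressed embryos. The members are aqp-1 to aqp-8, aqp-10 and aqp-11, taken by gene name from a deposited table of 45461 genes. Of these 10 genes, 9 passed the filter on low counts and 1, aqp-3, did not. The table holds 2 more genes with an aqp name, aqp-9 and aqp-12, whose values are given at the end.

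Aquaporins pass water across membranes along osmotic gradients. Some members, the aquaglyceroporins, also pass glycerol, the organic solute that worms make and retain when salt draws water from their cells. In worms, aquaporins are known from the intestine, the excretory canal, the epidermis, muscle and neurons.

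RNA was measured by sequencing in 10 libraries from whole embryos collected 3 hours after egg preparation, in 5 groups of 2. In the group called preconditioned (N2 300-500 mM in the figures), the parents, of the wild-type strain N2, were raised on 300 mM NaCl and the embryos were exposed to 500 mM. In the groups lin-45 500 mM and N2 500 mM, parents grew on 50 mM NaCl and the embryos were on 500 mM. In the groups lin-45 50 mM and N2 50 mM, parents and embryos were both on 50 mM NaCl. The lin-45 embryos carry the allele n2018 of lin-45, the gene of the RAF kinase in the RAS to ERK cascade. No preconditioned lin-45 group is among the samples. The labels do not say whether the libraries of a group came from separate cultures, so the p-values speak of the spread among these libraries alone, and that spread may be technical.

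The libraries held 22138098 to 34585489 counts, and 14802 genes were tested. The level of lin-45 RNA is no check of the allele: lin-45 had 118 ± 1.05 CPM in lin-45 50 mM and 94.0 ± 1.42 CPM in N2 50 mM (SD, n = 2 each). CPM here is the count scaled to a common library size by trimmed mean of M values (TMM). Replicates varied by 13.14% (pooled coefficient of variation). Comparisons were tested in 1 edgeR quasi-likelihood model over all 10 libraries, with Benjamini-Hochberg adjustment over all tested genes and a threshold of 0.05. A gene past that threshold is said to be called, and the error of a log2 fold change is its standard error (SE). With 2 libraries a group the smallest p of an exact permutation test is 0.333, so each call rests on the spread pooled across groups and genes.

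A single member made up most of the aquaporin RNA. On the authors' deposited FPKM scale, which divides counts by transcript length and library size, aqp-2 averaged 2335 ± 108 FPKM in preconditioned embryos, 1692 ± 41.5 FPKM in lin-45 500 mM, 2141 ± 7.72 FPKM in N2 500 mM, 872 ± 81.9 FPKM in lin-45 50 mM and 1534 ± 103 FPKM in N2 50 mM (SD, n = 2 each). AQP-2 is a water channel known from the excretory cell and the epidermis. Of the summed FPKM of the 10 members, aqp-2 held 88.5% to 89.8% in preconditioned embryos, a share of 86.5% to 87.6% in lin-45 500 mM and of 89.5% to 89.7% in N2 500 mM, and a share of 57.1% to 59.3% in lin-45 50 mM and of 72.9% to 75.6% in N2 50 mM. Ranked by FPKM among all genes, it came at 19 to 20 in preconditioned embryos, at 85 to 90 in lin-45 500 mM, at 34 to 45 in N2 500 mM, at 164 to 183 in lin-45 50 mM and at 118 to 124 in N2 50 mM.

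The other members together were lower on 500 mM than on 50 mM NaCl. Without aqp-2, the summed FPKM was 283 ± 13.8 FPKM in preconditioned embryos, 252 ± 11.5 FPKM in lin-45 500 mM, 249 ± 5.74 FPKM in N2 500 mM, 625 ± 17.9 FPKM in lin-45 50 mM and 531 ± 16.7 FPKM in N2 50 mM (SD, n = 2 each). No library on 500 mM reached the lowest library on 50 mM in this sum. The sum is given as a description, with no test.

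The order of the members below aqp-2 differed between the salt levels. On 50 mM NaCl aqp-7 was second, at 281 ± 4.53 FPKM in lin-45 embryos and 199 ± 6.17 FPKM in N2 embryos. On 500 mM aqp-10 was second, at 110.1 and 89.9 FPKM in preconditioned embryos, 97.7 ± 4.04 in lin-45 embryos and 109 ± 1.85 in N2 embryos. At the low end came aqp-5, between 1.92 and 4.01 FPKM as a group mean, and aqp-3, at most 0.145 FPKM as a group mean. In lin-45 50 mM the libraries of aqp-10, aqp-11 and aqp-1 overlapped, and in lin-45 500 mM those of aqp-1 and aqp-4 did. All other neighbours in the order of a group had libraries that did not overlap, though with 2 libraries a gene some gaps were small.

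**Figure D1:**
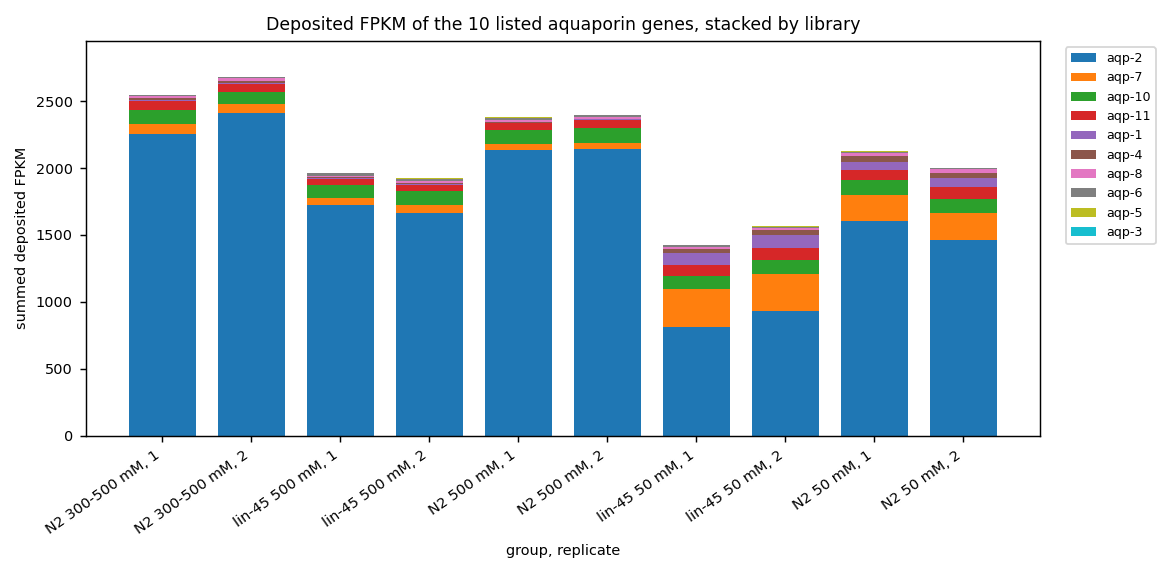
Summed deposited FPKM (linear axis from 0) of the listed aquaporin genes in each of the 10 libraries, as stacked bars by gene with aqp-2 at the bottom. The aqp-2 segment takes 57.1% to 59.3% of the bar in lin-45 50 mM and 88.5% to 89.8% in preconditioned embryos, and the rest of the bar is taller on 50 mM than on 500 mM.

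Replicates lay close for most members. The ratio of the higher to the lower replicate had a median over the 9 measured genes of 1.143 in preconditioned embryos, a median of 1.067 in lin-45 500 mM and of 1.103 in N2 500 mM, and a median of 1.064 in lin-45 50 mM and of 1.037 in N2 50 mM. The highest ratio, 1.993, was that of aqp-5 in preconditioned embryos.

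The first question is which aquaporin genes differed between embryos on 500 mM and on 50 mM NaCl. In N2, 8 of the 9 measured members were called, 2 higher and 6 lower on 500 mM, where 63.2% of all tested genes were called. In lin-45, 8 were also called, 2 higher and 6 lower, against 68.1% of all tested genes. The median log2 fold change of the 9 members was -0.924 in N2, beside -0.009 over all tested genes, and -0.807 in lin-45, beside -0.021. Of all tested genes, 31.3% were called higher and 31.9% lower in N2, and 33.3% higher and 34.8% lower in lin-45.

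Both measured channels known to pass glycerol, aqp-1 and aqp-7, fell on 500 mM. The gene aqp-1 (F32A5.5, ce10 chromosome II, 7235792 to 7238308, minus strand) encodes a glycerol channel of the intestine. It had 5.13 and 5.74 CPM in preconditioned embryos, 6.75 and 7.63 CPM in lin-45 500 mM, 4.89 and 5.81 CPM in N2 500 mM, 78.6 and 85.7 CPM in lin-45 50 mM, and 48.6 and 54.1 CPM in N2 50 mM. All 6 libraries on 500 mM lay far below all 4 on 50 mM. In N2, aqp-1 fell by 3.27 ± 0.13 on the log2 scale (adjusted p = 3.05e-07, edgeR), which is 9.63-fold lower. In lin-45 it fell by 3.51 ± 0.13 (adjusted p = 1.38e-07), or 11.4-fold, and the difference between the strains' responses was not called (-0.25, adjusted p = 0.315). The model of aqp-1, 2517 bases long, shares 89 bases at 1 end with F32A5.3 on the opposite strand, and whether counting used strand is not given in the sources used here. Only reads within those 89 bases could be assigned to either gene. F32A5.3 fell too, by 0.84 ± 0.11 in N2 (adjusted p = 0.00021) and by 0.81 ± 0.11 in lin-45 (adjusted p = 0.000214).

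The gene aqp-7 (M02F4.8, chromosome X, 3025051 to 3026961, plus strand) encodes an aquaglyceroporin known from body wall muscle. It had 73.9 and 79.1 CPM in preconditioned embryos, 69.1 and 73.8 CPM in lin-45 500 mM, 50.6 and 52.5 CPM in N2 500 mM, 357 and 336 CPM in lin-45 50 mM, and 219 and 229 CPM in N2 50 mM. Libraries on 500 mM and on 50 mM did not overlap, and within 50 mM the lin-45 libraries were the higher ones. On 500 mM aqp-7 fell by 2.12 ± 0.08 in N2 (adjusted p = 2.1e-07), 4.35-fold, and by 2.28 ± 0.08 in lin-45 (adjusted p = 1.12e-07), 4.85-fold. The difference between these responses was -0.16 (adjusted p = 0.298).

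The gene aqp-3 (Y69E1A.7, chromosome IV, 10961213 to 10963794, minus strand), an aquaglyceroporin of the excretory cell, was close to undetected. It had 23 counts in all 10 libraries. The group sums were 3 counts in preconditioned embryos, 3 counts in lin-45 500 mM, 0 counts in N2 500 mM, 11 counts in lin-45 50 mM and 6 counts in N2 50 mM. The 0 counts of N2 500 mM allow up to 3 counts over the group, or 0.0552 CPM, by counting error alone. The gene was below the filter. With no filter, edgeR called it in 0 of 7 comparisons, and 1 had an unadjusted p under 0.05. That was 500 mM against 50 mM in N2 (adjusted p = 0.0637). In lin-45 the adjusted p was 0.151, and no difference was detectable at this depth.

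Of the water channels, aqp-2 and aqp-4 went opposite ways. The gene aqp-2 (C01G6.1, chromosome II, 9258852 to 9261934, minus strand) had 2327 and 2664 CPM in preconditioned embryos, 1973 and 1848 CPM in lin-45 500 mM, 2435 and 2398 CPM in N2 500 mM, 1000.3 and 1098 CPM in lin-45 50 mM, and 1748 and 1592 CPM in N2 50 mM. All libraries on 500 mM were above all libraries on 50 mM. In N2 aqp-2 rose 1.45-fold (log2 0.53 ± 0.09, adjusted p = 0.001) and in lin-45 1.82-fold (log2 0.86 ± 0.09, adjusted p = 4.5e-05). The difference of 0.33 ± 0.13 between the responses was not called (adjusted p = 0.0929), but 7 of 17 alternative settings did call it.

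The gene aqp-4 (F40F9.9, chromosome V, 9737566 to 9744206, plus strand) encodes a water channel of the intestine. It had 46.2 and 52.8 CPM in preconditioned embryos, 19.5 and 26.2 CPM in lin-45 500 mM, 24.9 and 22.6 CPM in N2 500 mM, 113 and 119.4 CPM in lin-45 50 mM, and 127 and 131 CPM in N2 50 mM. The libraries formed 3 separate levels: lowest in both 500 mM groups from 50 mM parents, intermediate in preconditioned embryos, highest on 50 mM. On 500 mM aqp-4 fell by 2.44 ± 0.14 in N2 (adjusted p = 1.39e-06), 5.43-fold, and by 2.35 ± 0.14 in lin-45 (adjusted p = 1.25e-06), 5.10-fold.

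Another gene lies inside the model of aqp-4. In the deposited table its model spans marc-1 and the whole of sta-2, a STAT-like factor, on the same strand. The length implied by its counts and FPKM is 3225 to 3244 bases, against a range of 716 to 1166 bases over the other measured aqp genes. How reads were divided between aqp-4 and sta-2 is uncertain, and the FPKM of aqp-4 is divided by the longer length. The counts of sta-2 went the other way: it had 37.8 and 50.1 CPM in preconditioned embryos, 68.3 and 68.6 CPM in lin-45 500 mM, 55.0 and 51.6 CPM in N2 500 mM, 23.9 and 30.6 CPM in lin-45 50 mM, and 39.0 and 38.3 CPM in N2 50 mM. On 500 mM sta-2 rose by 0.46 ± 0.15 on the log2 scale in N2 (adjusted p = 0.02, edgeR) and by 1.32 ± 0.15 in lin-45 (adjusted p = 5.16e-05).

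**Figure D2:**
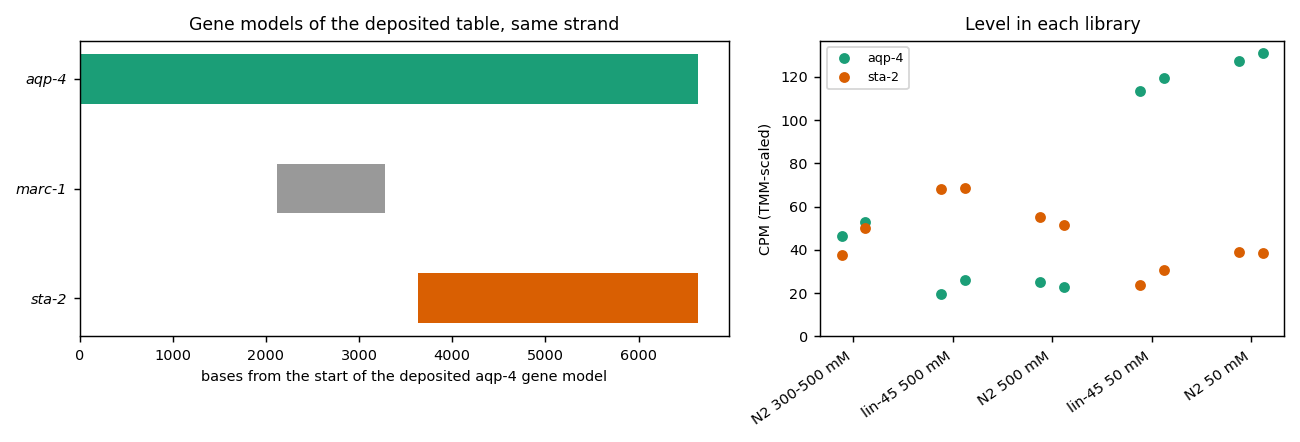
Left, the spans of the aqp-4, marc-1 and sta-2 models in bases from the start of aqp-4, showing that the aqp-4 model covers both others. Right, TMM-scaled CPM of aqp-4 and sta-2 in each library by group (linear axis): aqp-4 is highest on 50 mM, at 113 to 131 CPM, and sta-2 is highest in lin-45 500 mM, at 68.3 and 68.6 CPM.

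The remaining members with known sites also differed with salt. The gene aqp-8 (K02G10.7, chromosome X, 4702934 to 4704939, minus strand), known from the excretory canal, had 11.3 and 16.05 CPM in preconditioned embryos, 12.8 and 13.2 CPM in lin-45 500 mM, 14.0 and 12.1 CPM in N2 500 mM, 21.6 and 20.5 CPM in lin-45 50 mM, and 26.7 and 26.9 CPM in N2 50 mM. All libraries on 500 mM lay below those on 50 mM. On 500 mM aqp-8 fell by 1.04 ± 0.16 in N2 (adjusted p = 0.000439) and by 0.69 ± 0.16 in lin-45 (adjusted p = 0.00383). The difference of 0.35 ± 0.22 between the responses was not called (adjusted p = 0.273, edgeR). In a fit of only the groups compared it was 0.49 and was called (adjusted p = 0.0221, edgeR).

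The gene aqp-6 (C32C4.2, chromosome V, 10648424 to 10651800, plus strand), known from sensory neurons of the head, rose. It had 6.55 and 7.35 CPM in preconditioned embryos, 14.2 and 11.8 CPM in lin-45 500 mM, 12.3 and 10.998 CPM in N2 500 mM, 7.02 and 7.63 CPM in lin-45 50 mM, and 6.21 and 6.22 CPM in N2 50 mM. The 4 libraries on 500 mM from 50 mM parents were the high ones, and the preconditioned libraries lay among those on 50 mM. On 500 mM aqp-6 rose by 0.91 ± 0.15 in N2 (adjusted p = 0.000559), 1.88-fold, and by 0.83 ± 0.14 in lin-45 (adjusted p = 0.000772), 1.77-fold. An overlapping model on the same strand, C32C4.8, had 0 counts.

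The divergent members aqp-10 and aqp-11, which belong to the branch called unorthodox aquaporins, did not move alike. The gene aqp-11 (ZK525.2, chromosome III, 13673176 to 13674644, plus strand) had 52.1 and 50.7 CPM in preconditioned embryos, 37.4 and 38.8 CPM in lin-45 500 mM, 41.7 and 45.2 CPM in N2 500 mM, 78.4 and 81.1 CPM in lin-45 50 mM, and 62.9 and 70.7 CPM in N2 50 mM. No group's libraries overlapped those of another. On 500 mM aqp-11 fell by 0.62 ± 0.08 in N2 (adjusted p = 0.000217) and by 1.07 ± 0.09 in lin-45 (adjusted p = 6.64e-06).

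The gene aqp-10 (ZK1321.3, chromosome II, 9768391 to 9769793, minus strand) was the only measured member called in none of the 7 comparisons. It had 93.0 and 81.4 CPM in preconditioned embryos, 89.0 and 91.3 CPM in lin-45 500 mM, 101 and 101 CPM in N2 500 mM, 93.1 and 99.4 CPM in lin-45 50 mM, and 96.6 and 94.8 CPM in N2 50 mM. All 10 libraries lay between 81.4 and 101 CPM. The log2 difference between 500 mM and 50 mM was 0.08 ± 0.08 in N2 (adjusted p = 0.401) and -0.09 ± 0.08 in lin-45 (adjusted p = 0.323), and its sign changed under 1 or more alternative settings in both strains.

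The gene aqp-5 (C35A5.1, chromosome V, 10491719 to 10493245, plus strand) was the lowest of the measured members. It had 1.76 and 3.51 CPM in preconditioned embryos, 2.38 and 2.36 CPM in lin-45 500 mM, 2.16 and 1.60 CPM in N2 500 mM, 4.11 and 4.19 CPM in lin-45 50 mM, and 3.52 and 3.66 CPM in N2 50 mM. The libraries on 500 mM lay below those on 50 mM, with 1 preconditioned library close to N2 50 mM. On 500 mM aqp-5 fell by 0.92 ± 0.31 in N2 (adjusted p = 0.0271) and by 0.81 ± 0.30 in lin-45 (adjusted p = 0.0387). Neither call was firm. In N2 the adjusted p was 0.0742 without N2 50 mM replicate 1, 0.0983 without its replicate 2 and 0.15 without N2 500 mM replicate 2, and in lin-45 it reached 0.166 over the alternatives, of which 8 of 16 made the call.

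**Figure D3:**
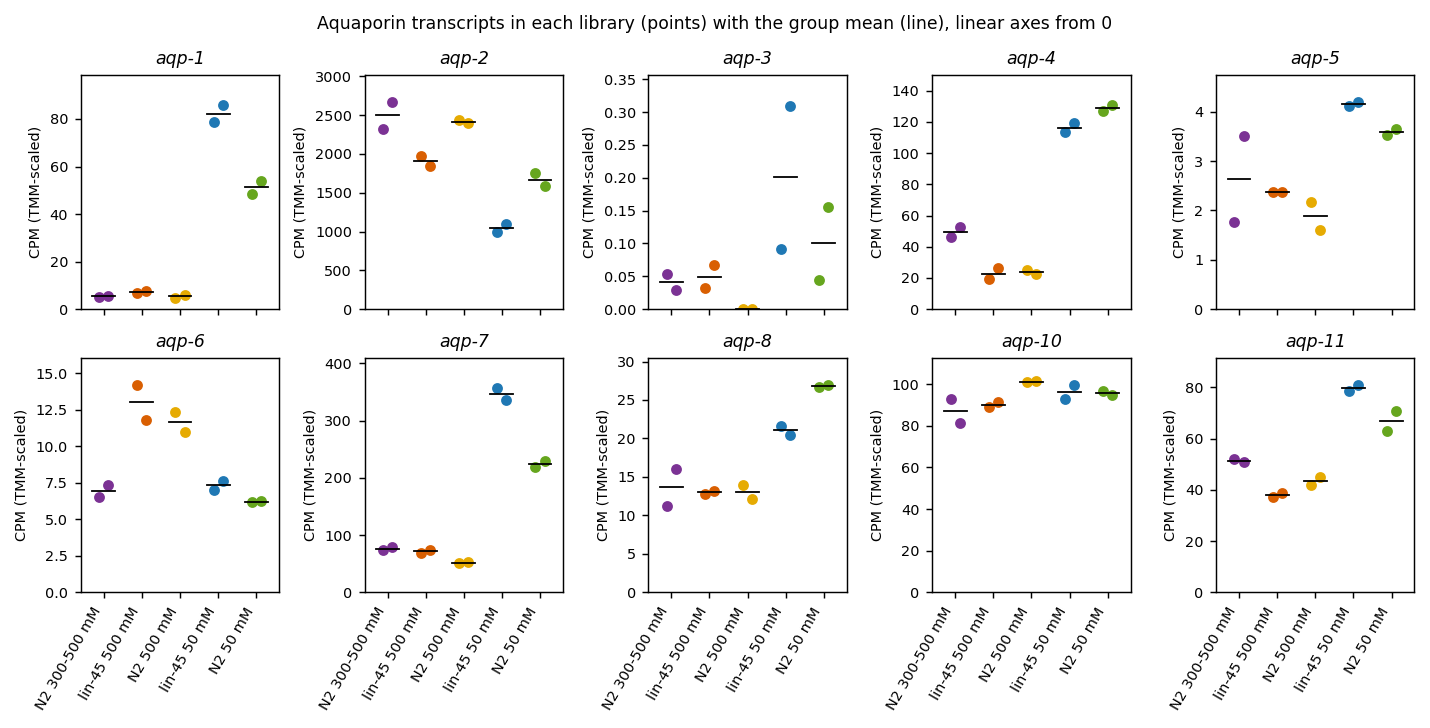
TMM-scaled CPM (linear axes from 0, each with its own scale) of the 10 listed aquaporin genes, 1 panel a gene, with each library as a point, the group mean as a line and groups from preconditioned (N2 300-500 mM) at the left to N2 50 mM at the right. Between 500 mM and 50 mM the points of aqp-1, aqp-4 and aqp-7 stand furthest apart among the measured genes, and those of aqp-10 lie between 81.4 and 101 CPM in every group.

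Whether the salt response differed between the 2 strains was tested as an interaction, the response of lin-45 minus the response of N2. Of the 9 members 1 was called, against 26.6% of all tested genes (12.3% higher and 14.3% lower). This was aqp-11, whose log2 fall was larger in lin-45, with a difference of -0.44 ± 0.12 (adjusted p = 0.0273). Relative to the median of all genes in this contrast the difference was -0.38. The direction held in all 17 alternatives, with values from -0.53 to -0.30, but 12 of them put the adjusted p above 0.05, up to 0.207.

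The 2 strains were then compared at each salt level. On 50 mM NaCl, 4 of 9 members were called, 3 higher and 1 lower in lin-45, beside 54.3% of all genes called (33.2% higher and 21.1% lower). The median gene stood 0.16 higher in lin-45 on the log2 scale here, and that median dropped to 0.063 with upper-quartile scaling and 0 with no filter. Differences are therefore also given relative to it.

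Both glycerol channels with enough counts were higher in lin-45 50 mM than in N2 50 mM. For aqp-1 the log2 difference was 0.68 ± 0.11 (adjusted p = 0.0011), or 0.52 relative to the median gene, and the means were 82.1 ± 4.99 CPM in lin-45 50 mM and 51.4 ± 3.83 CPM in N2 50 mM. For aqp-7 it was 0.63 ± 0.07 (adjusted p = 0.000227), or 0.47 relative to the median gene, with means of 346 ± 15.2 CPM in lin-45 50 mM and 224 ± 7.07 CPM in N2 50 mM (SD, n = 2 each). Neither gene's libraries overlapped between the strains.

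The water channel aqp-2 was lower in lin-45 on 50 mM, at 1049 ± 68.9 CPM in lin-45 50 mM and 1669.8 ± 110.2 CPM in N2 50 mM (SD, n = 2 each). The log2 difference was -0.67 ± 0.09 (adjusted p = 0.000474), or -0.83 relative to the median gene. The fourth call was aqp-11, higher by 0.26 ± 0.08 (adjusted p = 0.0283), of which 0.10 was left relative to the median gene. That call was lost in 11 of 17 alternatives. The members aqp-4, aqp-5, aqp-6, aqp-8 and aqp-10 were not called, with log2 differences from -0.35 to 0.24. Relative to the median gene, aqp-8 was at -0.51, aqp-4 at -0.31, and the other 3 from -0.15 to 0.08. For aqp-8 the result hung on the setting. It was called lower with RLE scaling (adjusted p = 0.0495, edgeR), upper-quartile scaling (0.0312), no filter (0.0209) and only the groups compared (0.0039).

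Between the strains on 500 mM NaCl, 1 of 9 members was called, beside 6.75% of all tested genes (4.98% called higher). This was aqp-7, at 71.5 ± 3.30 CPM in lin-45 500 mM and 51.5 ± 1.31 CPM in N2 500 mM (SD, n = 2 each), higher by 0.47 ± 0.08 on the log2 scale (adjusted p = 0.00761). Its adjusted p was 0.0759 without N2 500 mM replicate 1 and 0.0618 without N2 500 mM replicate 2. The values of aqp-1 (0.43 ± 0.13, adjusted p = 0.0889) and aqp-2 (-0.34 ± 0.09, adjusted p = 0.0656) had the same signs as on 50 mM and were not called.

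Preconditioned embryos were set against N2 500 mM to ask what parental growth on 300 mM NaCl changed in embryos on the same salt. Here 3 of 9 members were called, 2 higher and 1 lower, beside 22.6% of all genes (10.4% higher and 12.2% lower). The median log2 difference was 0.065 over the members and 0.052 over all tested genes.

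The largest of these differences was that of aqp-4, which averaged 49.5 ± 4.69 CPM in preconditioned embryos and 23.7 ± 1.64 CPM in N2 500 mM (SD, n = 2 each), 2.08-fold higher (log2 1.06 ± 0.13, adjusted p = 0.00113). The level of sta-2, whose model lies inside that of aqp-4, differed by -0.28 ± 0.14 (adjusted p = 0.198). Higher too was aqp-7, at 76.5 ± 3.67 CPM in preconditioned embryos and 51.5 ± 1.31 CPM in N2 500 mM (log2 0.57 ± 0.08, adjusted p = 0.00136). Lower was aqp-6, at 6.95 ± 0.568 CPM in preconditioned embryos and 11.7 ± 0.947 CPM in N2 500 mM (log2 -0.75 ± 0.14, adjusted p = 0.00668), a call that ended without N2 500 mM replicate 1 (adjusted p = 0.0535).

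Parental salt made no called difference for aqp-1 or aqp-2. The log2 difference from N2 500 mM was 0.03 ± 0.13 for aqp-1 (adjusted p = 0.906) and 0.05 ± 0.09 for aqp-2 (adjusted p = 0.754), and the libraries of both genes overlapped between the groups. The values of aqp-11 (0.24 ± 0.08, adjusted p = 0.0677), aqp-10 (-0.22 ± 0.08, adjusted p = 0.0875) and aqp-5 (0.47 ± 0.31, adjusted p = 0.302) were not called either.

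Against N2 50 mM, with both parental and embryonic salt different, 6 of 9 members were called in preconditioned embryos, 1 higher and 5 lower, beside 58.1% of all genes (30.2% higher and 27.9% lower). This comparison shares its preconditioned libraries with the last one and its N2 50 mM libraries with the salt comparison in N2. The gene aqp-1 fell by 3.24 ± 0.13 (adjusted p = 3.87e-07), aqp-7 by 1.55 ± 0.08 (adjusted p = 1.15e-06), aqp-4 by 1.38 ± 0.13 (adjusted p = 3.95e-05), aqp-8 by 0.97 ± 0.16 (adjusted p = 0.000825) and aqp-11 by 0.38 ± 0.08 (adjusted p = 0.00443). The gene aqp-2 rose by 0.58 ± 0.09 (adjusted p = 0.000845). The value of aqp-6 was 0.16 ± 0.15 (adjusted p = 0.368).

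**Figure D4:**
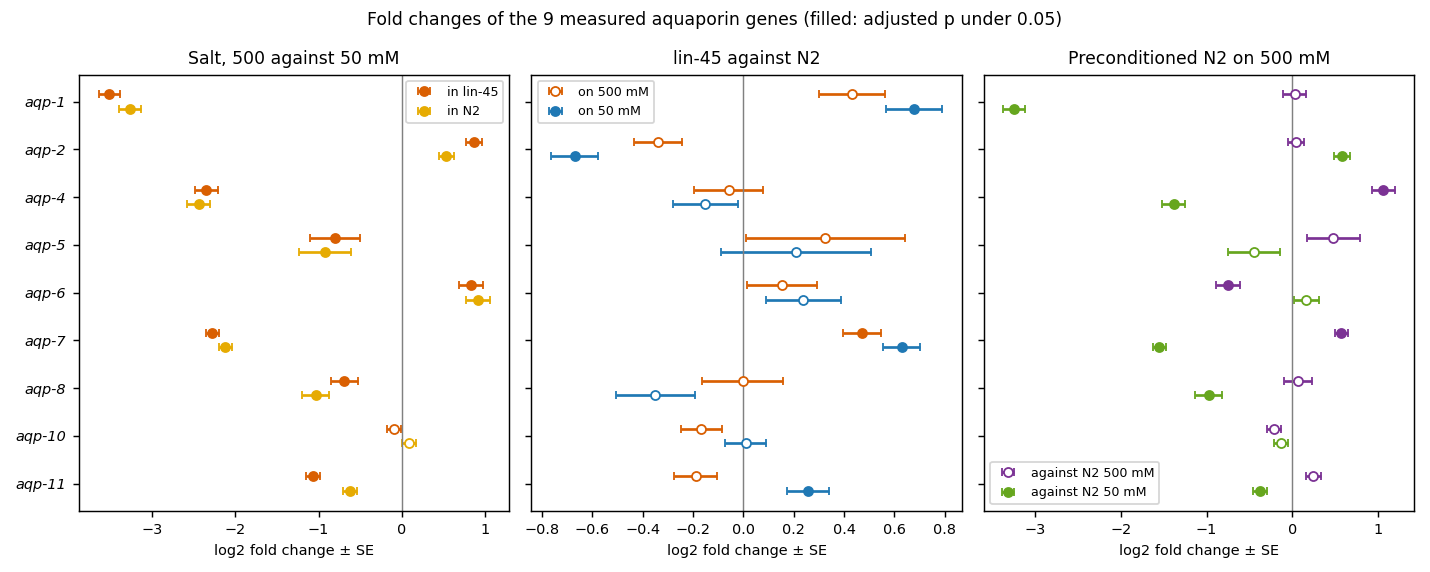
Log2 fold changes of the measured aquaporin genes with their SE, in 3 panels whose axes have different scales: embryos on 500 mM against 50 mM in each strain, lin-45 against N2 at each salt level, and preconditioned embryos against N2 500 mM and N2 50 mM. Filled symbols passed the threshold of 0.05 on the adjusted p; aqp-1, aqp-7 and aqp-4 lie furthest below 0 for salt, and aqp-4, aqp-7 and aqp-6 are the filled symbols for preconditioned embryos against N2 500 mM.

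In bulk RNA from whole embryos, fewer cells of a type and less RNA per cell cannot be told apart. Summed CPM over the listed markers of the tissues in which these channels are known moved between groups as well. The 9 intestinal markers, the most relevant to aqp-1 and aqp-4, summed to 1926 to 2373 CPM in preconditioned embryos, 3080.3 to 3120.0 CPM in lin-45 500 mM, 2168 to 2516 CPM in N2 500 mM, 6713 to 7148 CPM in lin-45 50 mM and 4269 to 4728 CPM in N2 50 mM. These sums were lower on 500 mM in both strains and higher in lin-45 than in N2 at each salt level. Of 7 measured intestinal markers, however, 3 were called higher and 3 lower on 500 mM in N2, with a median of -0.033, and 1 higher and 4 lower in lin-45, with a median of -0.465. Beside them, 31.3% of all tested genes were called higher and 31.9% lower in N2, and 33.3% higher and 34.8% lower in lin-45. Between strains on 50 mM, 4 of the 7 intestinal markers were called higher in lin-45 and 0 lower, beside 33.2% and 21.1% of all tested genes. The marker elt-2, a factor of intestinal identity, had 29.9 ± 0.872 CPM in preconditioned embryos, 19.6 ± 1.21 CPM in lin-45 500 mM, 22.2 ± 1.72 CPM in N2 500 mM, 21.2 ± 0.297 CPM in lin-45 50 mM and 22.7 ± 0.521 CPM in N2 50 mM (SD, n = 2 each). The early endoderm gene end-1 was below the filter. Its group means ran from 0 CPM in N2 50 mM to 0.63 CPM in preconditioned embryos.

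The 8 excretory markers, relevant to aqp-2, aqp-3 and aqp-8, summed to 668 to 813 CPM in preconditioned embryos, 723.2 to 723.3 CPM in lin-45 500 mM, 706 to 794 CPM in N2 500 mM, 612 to 643 CPM in lin-45 50 mM and 796 to 822 CPM in N2 50 mM. On 500 mM, 2 were called higher and 3 lower in N2, and 3 higher and 1 lower in lin-45, or 62.5% called in N2 and 50.0% in lin-45, beside 63.2% and 68.1% of all tested genes. The 8 epidermal markers, relevant to aqp-2, summed to 1733 to 1876 CPM in preconditioned embryos, 1353 to 1363 CPM in lin-45 500 mM, 1635 to 1644 CPM in N2 500 mM, 608 to 678 CPM in lin-45 50 mM and 1093 to 1181 CPM in N2 50 mM. Most of this sum came from ajm-1, a gene of epithelial junctions, with 950 ± 39.5 CPM in N2 500 mM and 648 ± 40.5 CPM in N2 50 mM, and from dpy-7, a cuticle collagen gene, with 334 ± 26.2 CPM in N2 500 mM and 155 ± 20.4 CPM in N2 50 mM. The epidermal GATA factor gene elt-3 had 53.3 ± 4.22 CPM in N2 500 mM and 57.7 ± 1.82 CPM in N2 50 mM (SD, n = 2 each). Of 7 measured epidermal markers, 3 were called higher and 0 lower on 500 mM in N2, and 3 higher and 2 lower in lin-45. The share called was 42.9% in N2 and 71.4% in lin-45, beside 63.2% and 68.1% of all tested genes. Between strains on 50 mM, 0 of these epidermal markers were called higher in lin-45 and 4 lower. Of the 8 excretory markers 1 was called higher and 4 lower there, beside 33.2% and 21.1% of all tested genes.

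For aqp-7, the 8 body wall muscle markers summed to 8572 to 10886 CPM in preconditioned embryos, 13854 to 14885 CPM in lin-45 500 mM, 12100.0 to 13000.0 CPM in N2 500 mM, 14675 to 16038 CPM in lin-45 50 mM and 12388 to 12847 CPM in N2 50 mM. Between 500 mM and 50 mM in N2 these sums overlapped, where aqp-7 fell 4.35-fold. On 500 mM, 1 of 8 muscle markers was called higher and 4 lower in each strain. The share called was 62.5%, beside 63.2% of all tested genes in N2 and 68.1% in lin-45. Between strains on 50 mM, 3 muscle markers were called higher in lin-45 and 0 lower, beside 33.2% and 21.1% of all tested genes. For aqp-6, the 8 neuronal markers summed to 1009.6 to 1254 CPM in preconditioned embryos, 1219 to 1239 CPM in lin-45 500 mM, 1059.9 to 1101 CPM in N2 500 mM, 1611 to 1687 CPM in lin-45 50 mM and 1501 to 1544 CPM in N2 50 mM. These sums were lower on 500 mM in both strains, where aqp-6 rose. Of the 8 neuronal markers, 1 was called higher and 5 lower on 500 mM in N2, and 1 higher and 3 lower in lin-45. The share called was 75% in N2 and 50% in lin-45, beside 63.2% and 68.1% of all tested genes. The 6 germ line markers summed to 74.6 to 110.03 CPM in preconditioned embryos, 79.4 to 86.5 CPM in lin-45 500 mM, 58.8 to 60.8 CPM in N2 500 mM, 57.8 to 60.1 CPM in lin-45 50 mM and 50.0 to 52.6 CPM in N2 50 mM. On 500 mM, 2 of 6 were called higher and 0 lower in N2, and 4 higher and 0 lower in lin-45. The share called was 33.3% in N2 and 66.7% in lin-45, beside 63.2% and 68.1% of all tested genes. In preconditioned embryos against N2 50 mM, all 6 were called higher, beside 30.2% of all tested genes. The 2 preconditioned libraries differed most in mex-5 (31.2 and 7.99 CPM) and nos-2 (10.2 and 1.49 CPM). The parts of tissue make-up and of embryonic stage in the aquaporin results were not tested.

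The enzymes that make and use glycerol, the solute that aquaglyceroporins carry, went the opposite way to aqp-1 and aqp-7. On 500 mM, all 7 listed genes were called higher in N2, with a median log2 fold change of 3.20, and 5 of 7 in lin-45, with a median of 2.92. Beside them, 31.3% of all tested genes were called higher in N2 and 33.3% in lin-45. Both medians are the value of K09H11.7 (pgph-1), with an SE of 1.07 in N2 and 1.24 in lin-45, where it was not called. K09H11.7 was near 0 on 50 mM, at 0 and 0.75 CPM in N2 and 0.554 and 0 CPM in lin-45. The gene gpdh-1, whose enzyme makes glycerol 3-phosphate, had 73.4 and 91.3 CPM in preconditioned embryos, 109 and 107 CPM in lin-45 500 mM, 187 and 180.0 CPM in N2 500 mM, 13.2 and 9.62 CPM in lin-45 50 mM, and 4.05 and 3.34 CPM in N2 50 mM. It rose by 5.64 ± 0.19 in N2 (adjusted p = 1.59e-07, edgeR) and by 3.25 ± 0.16 in lin-45 (adjusted p = 5.34e-07), and this difference between strains was called (-2.39 ± 0.23, adjusted p = 0.00146). Its paralog gpdh-2 rose by 1.35 ± 0.11 in N2 (adjusted p = 7.66e-06) and had a value of 0.25 ± 0.10 in lin-45 (adjusted p = 0.0565). For gpdh-2 the difference between strains was -1.105 ± 0.15 (adjusted p = 0.00429). In the interaction 3 of the 7 were called lower and 0 higher, with a median of -0.801, beside 14.3% of all tested genes called lower.

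The glycerol 3-phosphate phosphatase genes F44E7.2 (pgph-2) and C53A3.2 (pgph-3) rose on 500 mM in N2 by 4.64 ± 0.21 (adjusted p = 8.66e-07) and 5.09 ± 0.27 (adjusted p = 3.03e-06). In lin-45 50 mM against N2 50 mM, 3 of the 7 genes were called higher, beside 33.2% of all tested genes. These were gpdh-2, gpdh-1 and F44E7.2, with gpdh-1 at 1.62 ± 0.18 (adjusted p = 0.000172). In the same comparison aqp-1 and aqp-7 were called higher as well. Against N2 500 mM, 4 of 7 were called lower in preconditioned embryos and 0 higher, beside 12.2% of all tested genes called lower. They were gpdh-1 (-1.16 ± 0.14, adjusted p = 0.00105), the glycerol kinase gene R11F4.1 (-0.68 ± 0.09, adjusted p = 0.00117), C53A3.2 (-0.99 ± 0.22, adjusted p = 0.0166) and gpdh-2 (-0.36 ± 0.10, adjusted p = 0.0356).

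Lists of other transport and regulatory genes of osmoregulation held genes called in both directions. Of 13 measured ion and osmolyte transport genes, 7 were called higher and 2 lower on 500 mM in N2, and 8 higher and 2 lower in lin-45. The share called was 69.2% in N2 and 76.9% in lin-45, near the 63.2% and 68.1% of all tested genes. In N2, hmit-1.1 rose by 2.49 ± 0.11 (adjusted p = 5.26e-07) and hmit-1.2 by 2.76 ± 0.20 (adjusted p = 1.01e-05), both of them encoding transporters of myo-inositol, and the kinase gene wnk-1 rose by 1.08 ± 0.07 (adjusted p = 1.93e-06). In the interaction 4 of the 13 were called higher and 0 lower, beside 12.3% and 14.3% of all tested genes. Of 11 listed regulators of the hypertonic response, 5 were called higher and 3 lower in N2, and 8 higher and 2 lower in lin-45. The share called was 72.7% in N2, beside 63.2% of all tested genes, and 90.9% in lin-45, beside 68.1%. The O-GlcNAc transferase gene ogt-1 rose by 2.10 ± 0.09 in N2 (adjusted p = 4.74e-07), the insulin receptor gene daf-2 by 1.01 ± 0.07 (adjusted p = 3.08e-06), while osm-11 fell by 2.04 ± 0.10 (adjusted p = 7.83e-07).

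Several aquaporin genes had close companions in their pattern over the 10 libraries. Likeness was the Pearson correlation of log2(CPM + 1) with each of 10417 genes that reached a mean of 10 CPM in some group, and is a description, since all genes share the libraries and their depth. For aqp-1 the nearest were clec-76 and asp-8, both at r = 0.9979, and for aqp-7 nhr-178 (r = 0.9988) and lys-1 (r = 0.9974). For aqp-2 they were H14E04.1 (r = 0.9971) and W01C8.5 (r = 0.9961), and for aqp-4 math-4 (r = 0.9967) and nhr-138 (r = 0.9929). The nearest to aqp-11 were coq-5 (r = 0.995) and ddp-1 (r = 0.9912), to aqp-6 ZK370.4 and sbp-1 (both r = 0.9872), and to aqp-8 unc-58 and F08G5.3 (both r = 0.9849). The gene aqp-10, whose level varied little, had no such neighbour: K08A2.4 came first at r = 0.8299. The first neighbour of aqp-7, nhr-178, encodes a nuclear hormone receptor, and its mean was 2.33 CPM in preconditioned embryos, 2.13 CPM in lin-45 500 mM, 0.992 CPM in N2 500 mM, 54.1 CPM in lin-45 50 mM and 24.2 CPM in N2 50 mM.

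The 2 aqp genes outside the list also differed between groups. The gene aqp-9, a divergent aquaporin on chromosome I that overlaps ile-1 on the opposite strand, had 2.59 and 4.54 CPM in preconditioned embryos, 3.20 and 2.77 CPM in lin-45 500 mM, 2.43 and 2.53 CPM in N2 500 mM, 23.3 and 20.9 CPM in lin-45 50 mM, and 12.7 and 15.4 CPM in N2 50 mM. Libraries on 500 mM were below all libraries on 50 mM. On 500 mM aqp-9 fell by 2.51 ± 0.25 in N2 (adjusted p = 3.12e-05) and by 2.88 ± 0.24 in lin-45 (adjusted p = 9.13e-06), and on 50 mM it was higher in lin-45 by 0.65 ± 0.22 (adjusted p = 0.0314), or 0.49 relative to the median gene. The models of aqp-9 and ile-1 share 13 bases.

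The gene aqp-12, on chromosome II, shares 301 of the 6131 bases of its model with pqn-87 on the opposite strand, where reads cannot be told apart without strand. The length implied by its counts and FPKM is 987 to 1003 bases, so the shared part of the transcript may be larger than of the model. Over all libraries pqn-87 had 141793 counts and aqp-12 had 1274, and how many came from the shared bases is unknown. In CPM, aqp-12 had 4.97 and 7.38 CPM in preconditioned embryos, 4.09 and 3.24 CPM in lin-45 500 mM, 4.62 and 3.71 CPM in N2 500 mM, 1.62 and 2.30 CPM in lin-45 50 mM, and 5.51 and 4.91 CPM in N2 50 mM. The lin-45 50 mM libraries were the lowest. On 500 mM it rose by 0.89 ± 0.27 in lin-45 (adjusted p = 0.0163) and had a value of -0.32 ± 0.25 in N2 (adjusted p = 0.3). The difference between these responses was called, at 1.21 ± 0.37 (adjusted p = 0.0426). That value rests on 35 to 252 counts a library, and its hold under alternative settings is not reported.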

How the data were processed

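The authors deposited 1 table over 45461 genes in 10 libraries. Its expected counts (RSEM estimates, not normalized), FPKM and log2 values are the authors' own, per the file headers, and the log2 column equals log2(FPKM + 1). A further deposited column, the variance of the log2 values, was treated as a score and not used. Build ce10 and the tools RSEM 1.2.15, BWA 0.6.1, DESeq 1.10.1 and bedtools 2.25.0 are listed in the submitters' processing notes. What each tool did, and whether counting used strand, is not given in the sources used here. Coordinates are those of the deposited table. Each library came from poly(A)-selected RNA, sequenced as read pairs, per the labels' protocols.

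Expected counts were rounded, genes with at least 1 CPM in at least 2 libraries were kept (14802 genes, at least 99.89% of each library's counts), and TMM factors ran from 0.9227 to 1.083. The edgeR 4.0.16 quasi-likelihood model (R 4.3.3) had 5 group means and 5 residual degrees of freedom (median prior value 4.091) and gave two-sided tests of 7 comparisons. The fitting code was tested on simulated data in which few genes changed, as many up as down. Salt here went with calls in most genes, so that test does not cover scaling or error rates under such wide change. Relative depth and counting noise limit members of a few CPM, such as aqp-5, most. FPKM served only for levels between genes.

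The genes named were all aqp genes, gpdh-1, gpdh-2 and the 2 nearest genes in pattern. From each list up to 3 called members of smallest p were named. Chosen after their values were seen, or as checks, were elt-2, end-1, K09H11.7, mex-5, lin-45 and neighbours that overlap aqp genes. So were the values of gpdh-2 that were not called. The members and lists were chosen with earlier results of these data known. List genes absent by name were matched through RefSeq synonyms; 1 marker and 1 glycerol gene name had no match. Alternatives were other scalings (RLE, upper quartile), filters, DESeq2 1.42.0, the groups compared alone, a replicate block and leaving out each library.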

Additional observations from a re-analysis of the deposited data

Results flagged for a closer look

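The log2 fall of aqp-11 on 500 mM was larger in lin-45 than in N2, by a test of the difference itself: the interaction was -0.44 on the log2 scale (adjusted p = 0.0273, edgeR). That call was lost in 12 of 17 alternatives. The gene aqp-11 averaged 38.1 ± 1.00 CPM in lin-45 500 mM, 43.5 ± 2.43 CPM in N2 500 mM, 79.8 ± 1.86 CPM in lin-45 50 mM and 66.8 ± 5.47 CPM in N2 50 mM (SD, n = 2 each). The same test called the response of aqp-12, at 1.21 on the log2 scale (adjusted p = 0.0426), and those of gpdh-1, at -2.39 (adjusted p = 0.00146), and gpdh-2, at -1.105 (adjusted p = 0.00429). Alternatives are reported for the listed aqp genes only, so none is given for aqp-12, gpdh-1 or gpdh-2.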

How the results depend on the processing

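Over 63 log2 fold changes (9 genes in 7 comparisons) and 17 alternatives, 25 of 31 called values kept their call and direction under all alternatives that gave a value. A filter of at least 5 CPM removes aqp-5. The 6 calls that were lost under some alternative are those of aqp-5 in both salt comparisons, aqp-11 in the interaction and between strains on 50 mM, aqp-7 between strains on 500 mM and aqp-6 in preconditioned embryos. With DESeq2 the adjusted p was 0.0722 for the aqp-11 interaction and 0.0737 for aqp-5 in lin-45. The cause was not tested.

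The 1 member called in the interaction, aqp-11, was not always the same gene. With only the groups compared 2 were called, aqp-2 (adjusted p = 0.00694, edgeR) and aqp-8 (0.0221), and aqp-11 was not (0.0601). The 1 call was aqp-2 in place of aqp-11 with upper-quartile factors (adjusted p = 0.0319, edgeR), no filter (0.0225) and DESeq2 (0.0429). Leaving out a library changed the count as well. The 1 member called between strains on 500 mM became 2 with no filter, 2 with DESeq2, 2 with only the groups compared, and 0 to 3 when a library was left out. The 3 members called in preconditioned embryos against N2 500 mM became 2 to 5 when a library was left out. Over all genes, the calls between strains on 500 mM were 999, against 3084 with only the groups compared and 264 to 2321 with a library left out. In the interaction they were 3938, against 756 to 5300, and in preconditioned embryos against N2 500 mM 3345, against 1476 to 4377.

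Only uncalled values changed sign. For aqp-10 this was the N2 salt value with no filter (-0.0503). Between strains on 50 mM aqp-10 stood at -0.0400 with RLE, -0.0874 with upper-quartile factors, -0.13 with no filter, -0.00119 at 5 CPM, -0.0397 with DESeq2 and -0.13 with only the groups compared. The aqp-6 interaction was 0.0204 with upper-quartile factors, 0.0472 with no filter and 0.0531 with only the groups compared. Between strains on 500 mM aqp-8 was 0.00489 with RLE, 0.00465 with upper-quartile factors, 0.00685 at 5 CPM, 0.00489 with DESeq2 and 8.77e-05 with only the groups compared. With a library left out, signs changed in these ranges: aqp-10 from -0.15 to 0.0433 in lin-45 on 500 against 50 mM and from -0.13 to 0.0600 between strains on 50 mM; aqp-5 from -0.0759 to 0.36 and aqp-6 from -0.22 to 0.19 in the interaction; aqp-4 from -0.28 to 0.14 and aqp-8 from -0.10 to 0.11 between strains on 500 mM. In preconditioned embryos against N2 500 mM they were aqp-1 from -0.10 to 0.15, aqp-2 from -0.0300 to 0.0684, aqp-5 from -0.0803 to 0.82 and aqp-8 from -0.19 to 0.23.

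The labels state no pairing of samples by replicate number. Deviations of same-numbered libraries correlated at -0.229 to 0.146 over 10 pairs of groups, 1 of them above 0.1. Such correlations cannot show whether the samples were paired. With the replicate block the count of calls in lin-45 on 500 against 50 mM was 7 instead of 8, with aqp-5 at an adjusted p of 0.0504, and in the other 6 comparisons it did not change. A lone library left in a group is assumed to vary like the other groups. The gene aqp-3, below the filter, was called in 0 of 7 comparisons by edgeR with no filter (1 with an unadjusted p under 0.05), and aqp-5, at a few CPM, had the largest errors.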
